A study of Mus musculus with 24 samples.

Results

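The apoptosis and necroptosis regulators Fas, Casp8, Ripk1, Ripk3, Mlkl, Gsdmd, Bcl2l11, Bcl2l1 and Mcl1, were followed by symbol through 24 mouse liver RNA-seq libraries (9 of 24411 genes). All mice were males. In the LKO cohort, Alb-Cre deleted floxed E2f7 and E2f8 in the liver throughout life, and Cre-negative littermates on the same mixed, mainly FVB background served as controls. Both genotypes carried the floxed alleles and the R26R mTmG reporter. In the HKO cohort, floxed adult mice received AAV8-TBG-Cre, which drives Cre in hepatocytes, or AAV8-TBG-Null (AAV control) at 2 months of age. Mice were studied at 2.5 months after a fast of about 16 h. At 0 h, without APAP, 4 control, 4 LKO, 3 AAV control and 3 HKO mice were sequenced singly. At 12, 24, 48, 72 and 96 h after 300 mg/kg acetaminophen (APAP), the LKO cohort gave 1 control and 1 LKO library per time point, each pooled from 3 mice, so that the difference between genotypes at a single time point has no replicate. HKO mice after APAP were not analysed here.

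Fas is a death receptor that recruits and activates the initiator protease caspase 8 (Casp8). When caspase 8 is inactive, the kinases RIPK1 (Ripk1) and RIPK3 (Ripk3) can instead activate MLKL (Mlkl), which permeabilizes the plasma membrane in necroptosis, while gasdermin D (Gsdmd) forms pores after cleavage by inflammatory caspases. BIM (Bcl2l11) is a BH3-only protein that promotes mitochondrial outer membrane permeabilization, and BCL-XL (Bcl2l1) and MCL1 (Mcl1) are anti-apoptotic proteins that hold it in check and are needed for hepatocyte survival. APAP overdose kills hepatocytes mainly by necrosis that begins in the mitochondria.

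Upstream sequences of Bcl2l11, Bcl2l1 and Mcl1, the Bcl-2 family genes among the 9, and of Fas are printed here. The first 3 genes rose at 12 h in the fit of both genotypes and Fas did not. For Bcl2l1 and Mcl1, the LKO pool at 12 h was within the range of the LKO mice at 0 h. Casp8, Ripk3 and Mlkl also rose at 12 h, and their sequences are not printed. Each sequence is the 250 bases before a RefSeq transcription start on GRCm38.p6, given 5′ to 3′ on the strand of the gene. Bcl2l11 has 1 further start in the table, with GC boxes in its window too. Bcl2l1 has 3 starts, and the one shown lies inside the annotated gene. It was chosen for its match, since the windows of the other 2 starts, among them the one at the annotated 5′ end, held none of the motifs searched. Capitals mark a GC box (GGGCGG or its reverse complement) in Bcl2l11, Mcl1 and Fas, an NF-kB site by its usual consensus in Bcl2l1, and an AP-1 site (TGANTCA) and a STAT site (TTCNNNGAA) in Fas.
Bcl2l11, chr2:128125788-128126037 (+ strand): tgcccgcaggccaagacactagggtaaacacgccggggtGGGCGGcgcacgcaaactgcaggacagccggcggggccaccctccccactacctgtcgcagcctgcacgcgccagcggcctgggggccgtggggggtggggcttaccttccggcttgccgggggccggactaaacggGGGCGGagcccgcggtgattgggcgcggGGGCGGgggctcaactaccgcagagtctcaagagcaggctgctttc
Bcl2l1, chr2:152830718-152830967 (- strand): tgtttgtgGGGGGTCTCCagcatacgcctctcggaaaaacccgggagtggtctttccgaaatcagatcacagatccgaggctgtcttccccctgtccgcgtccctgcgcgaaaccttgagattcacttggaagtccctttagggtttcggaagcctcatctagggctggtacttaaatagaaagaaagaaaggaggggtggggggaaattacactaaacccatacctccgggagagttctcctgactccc
Mcl1, chr3:95658471-95658720 (+ strand): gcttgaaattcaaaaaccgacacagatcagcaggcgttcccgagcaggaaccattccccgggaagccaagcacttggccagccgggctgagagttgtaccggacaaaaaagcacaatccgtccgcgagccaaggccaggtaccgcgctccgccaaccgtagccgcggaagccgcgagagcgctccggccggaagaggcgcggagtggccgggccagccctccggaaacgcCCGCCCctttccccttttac
Fas, chr19:34290409-34290658 (+ strand): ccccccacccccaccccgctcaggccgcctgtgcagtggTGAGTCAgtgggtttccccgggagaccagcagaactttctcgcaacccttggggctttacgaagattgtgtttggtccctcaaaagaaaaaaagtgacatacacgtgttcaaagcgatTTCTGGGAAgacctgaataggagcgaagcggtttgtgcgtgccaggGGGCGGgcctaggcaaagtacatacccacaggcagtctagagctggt
RefSeq windows, from 250 bases before to 50 bases after the start, were at hand for 8 of the 9 genes (12 windows), with none for Gsdmd. Both strands were searched. The AP-1 letters stood in 1 of the 12 windows (Fas) and in 7.81% of 32851 windows of this length over all genes. The STAT letters, a palindrome, stood in 2 (Fas and Ripk1) against 8.30% of all windows, the NF-kB consensus in 1 (Bcl2l1) against 4.51%, an interferon-stimulated response element in 1 (Ripk1) against 3.44% and a GC box in 7 against 35.66%. An E2F site, written TTTCCCGC or TTTGGCGC, was in none of the 12 windows and in 1.56% of all. The cAMP response element TGACGTCA (1.79% of all) and a serum response element (1.63%) were in none either. Matches are descriptions of these letters in these windows.

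Reads on genes ranged from 12665686 to 19499897 per library, and 3 counts corresponded to 0.154 to 0.237 CPM (counts scaled to a common library total). CPM values are scaled by TMM within each cohort, so they are not set against each other across cohorts. The 8 hepatocyte markers were abundant in every library, with summed levels of 56155 to 138056 CPM. Whole-gene counts do not check the deletion, because the floxed exons are not counted apart from the rest, and the study's own checks of the deletion, by chosen exons of E2f8 and by the reporter, were not analysed here. E2f7 lay at 0.118 to 0.501 CPM in control and 0.166 to 0.233 CPM in LKO mice at 0 h. E2f8 was higher, not lower, in the libraries labelled knockout, with 30.1, 51.7 and 81.9 CPM in HKO against 14.5, 17.8 and 25.7 CPM in AAV control mice, and 17.8 to 34.4 CPM in LKO against 11.7 to 18.9 CPM in control mice. Genotype names therefore stand for the labels throughout, and every direction between genotypes rests on them.

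In control livers at 0 h, the 9 genes differed widely in level. Per kilobase of merged exons (GENCODE vM21, GRCm38), Mcl1 was highest at 48.7 CPM per kb, with the 4 mice at 45.7 to 56.6. It stood clear of Gsdmd (19.3, range 17.6 to 20.9). Bcl2l1 followed at 14.9, and its mice, at 8.88 to 23.0, overlapped those of Gsdmd. Fas (10.5, range 5.11 to 13.9) overlapped both Bcl2l1 and Casp8 (8.78, range 7.20 to 10.1). Ripk1 (4.32, range 3.41 to 5.31) lay below all mice of Casp8, and Mlkl (1.73, range 1.44 to 2.27) below all mice of Ripk1. Bcl2l11 (0.787, range 0.478 to 1.26) and Ripk3 (0.429, range 0.281 to 0.571) were lowest and overlapped each other. The RNA of the necroptosis kinase RIPK3 was scarce in whole liver, with 9 to 18 reads per control library at 0 h. Ripk1 (chr13:34002363-34037147) shares 511 exonic bases with the processed pseudogene Gm17084 on the same strand and 241 with Serpinb6a on the opposite strand. The counts used disregard strand, so reads in these stretches cannot be assigned to 1 gene.

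None of the 9 genes was called between genotypes before APAP. Between LKO and control mice, 0 of 9 were called (edgeR adjusted p under 0.05 and a fold of at least 1.5), as were 0% of 12426 genes tested, of which 352 had an unadjusted p under 0.05. The estimates ran from Bcl2l1 (log2 fold change -0.30 ± 0.32 SE, 95% interval -1.02 to 0.42) to Bcl2l11 (0.26 ± 0.28 SE, -0.36 to 0.88), both at an edgeR adjusted p of 0.999. Between HKO and AAV control mice, 0 of 9 were called, against a background of 0.960% of 12397 genes. Here the estimates ran from Bcl2l1 (-0.20 ± 0.24 SE, -0.74 to 0.35) to Fas (0.33 ± 0.15 SE, -0.02 to 0.67, edgeR adjusted p = 0.415). The sign of the Bcl2l1 value depended on 1 mouse and was 0.04 without AAV control replicate 2. In the test of the LKO effect against the HKO effect, 0 of 9 genes were called, as were 0% of 12945 genes, of which 579 had an unadjusted p under 0.05. The widest gap was that of Fas (-0.61 ± 0.37 SE, -1.40 to 0.18, edgeR adjusted p = 1.00). DESeq2 also called 0 of 9 in each of these 3 comparisons. The intervals are wide for Bcl2l1, Ripk3 and Fas, and differences within them were not detectable with 3 or 4 mice per group.

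**Figure D1:**
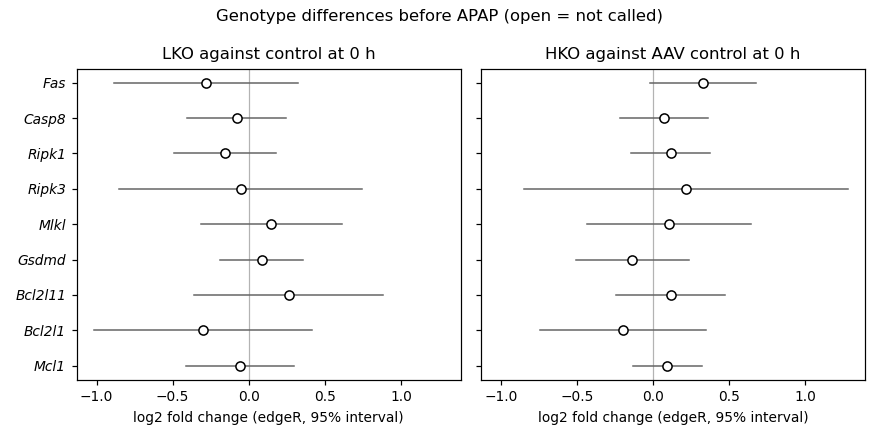
Log2 fold changes (x axis, edgeR, with 95% intervals as bars) of the 9 genes (y axis) for LKO against control (4 mice each) and HKO against AAV control (3 mice each) at 0 h, before APAP. All points are open, since no gene was called, and every interval includes 0.

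After APAP, more of the 9 genes were called at 12 h than at any later time. Comparing both pools of a time point with the 8 mice at 0 h, with genotype in the model, 6 of 9 genes rose at 12 h against 17.0% of 13328 genes, and 1 fell against 14.5%. Much of this rested on the 12 h control pool, without which 3 members were called (Ripk3, Bcl2l11 and Gsdmd), as many as at 24 h, and in LKO libraries alone 2 were (Bcl2l11 and Gsdmd). That pool also had 13.6% of its reads in no annotated feature, against 7.29% to 10.9% in the other 17 libraries of the LKO cohort, and the part of this in its values was not tested. At 24 h, 3 rose and 0 fell, against 14.1% and 12.1% of all genes. At 48 h, 3 rose and 0 fell, against 10.0% and 6.71%, and at 72 h 2 rose and 0 fell, against 11.0% and 5.81%. At 96 h, 0 of 9 were called in either direction, against 0.338% higher and 0.128% lower, by edgeR and by DESeq2. The median log2 fold change of the 9 genes declined from 1.09 to 0.42, 0.15, 0.11 and 0.06 over the 5 time points, beside medians of -0.04 to 0.00 over all genes tested. The 5 time comparisons share the 8 mice at 0 h and 1 estimate of spread. Pools are also placed below against the range of the 8 mice. The share of all genes with both pools of 1 time outside that range was not computed. Whole liver was sequenced, so more cells of a type and more RNA per cell cannot be told apart.

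**Figure D2:**
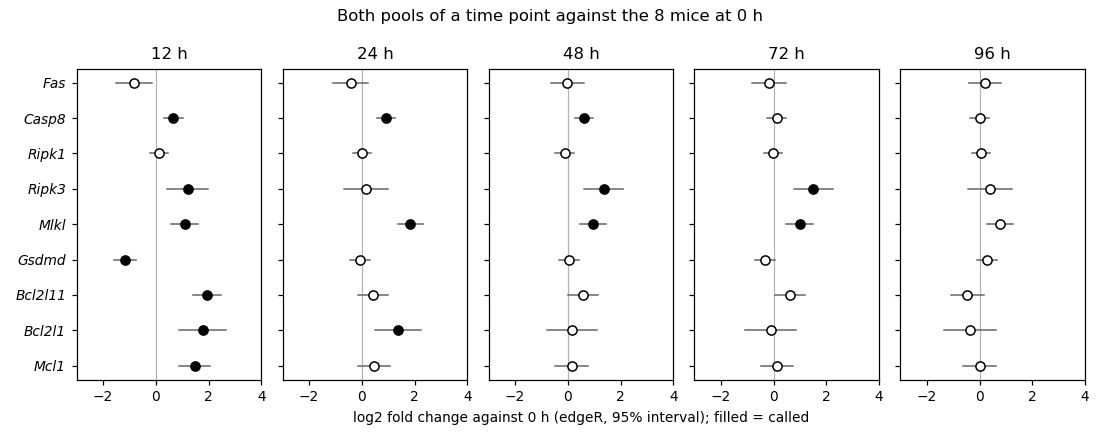
Log2 fold change against 0 h (x axis, edgeR, 95% intervals as bars) of the 9 genes (y axis) at each time point, from 2 pools (1 control, 1 LKO) against 8 mice. Filled points are called, and their number goes from 7 (12 h, or 3 without the control pool) through 3, 3 and 2 to 0 (96 h).

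Fas (chr19:34290666-34327772, GRCm38), the death receptor, was the only member besides Gsdmd with a negative estimate at 12 h. Its control mice at 0 h held 10.5, 18.8, 28.5 and 28.7 CPM and its LKO mice 14.1, 17.7, 19.0 and 20.1 CPM. Control pools held 9.48, 14.3, 15.3, 19.3 and 27.8 CPM from 12 to 96 h, and LKO pools 12.3, 14.7, 23.0, 15.7 and 17.9 CPM. The 12 h control pool was below all 8 mice, and the 12 h LKO pool was above the lowest control mouse. The 12 h estimate was -0.83 ± 0.32 SE with an edgeR adjusted p of 0.0516, and it was not called. It was called in 9 of 27 alternatives, among them DESeq2 (-0.82, adjusted p = 0.0271) and the fit without the lowest mouse, control replicate 4 (-0.93, adjusted p = 0.0158).

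Casp8 (chr1:58795374-58847503), the protease downstream of Fas, rose at 12, 24 and 48 h. At 0 h it lay at 20.8, 24.6, 27.0 and 29.1 CPM in control and 20.9, 22.8, 23.0 and 29.0 CPM in LKO mice. Control pools held 45.2, 50.4, 47.2, 32.0 and 27.6 CPM from 12 to 96 h, and LKO pools 33.7, 43.0, 30.5, 22.2 and 22.4 CPM. Both pools were above all 8 mice from 12 to 48 h, and both were within the range of the mice at 96 h. The rise was 1.58-fold at 12 h (log2 0.66 ± 0.16 SE, edgeR adjusted p = 0.00526), 1.89-fold at 24 h (0.91 ± 0.16 SE, adjusted p = 7.0e-04) and 1.55-fold at 48 h (0.63 ± 0.16 SE, adjusted p = 0.0141). Without the control pool of that time, the 12 h call was lost (0.57, adjusted p = 0.0868) and so was the 48 h call (0.42, adjusted p = 0.295). The 24 h call was lost in LKO libraries alone (0.85, adjusted p = 0.0536). The 48 h value also fell under the fold limit without control replicate 4 at 0 h (0.57, adjusted p = 0.0213).

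Ripk1, the scaffold kinase shared by survival and death complexes, was called at no time. Its 18 libraries spanned 28.4 to 44.3 CPM. Control mice at 0 h held 28.4, 35.3, 36.2 and 44.3 CPM, and LKO mice 28.5, 30.5, 31.8 and 38.2 CPM. Its highest estimate was at 12 h (0.13 ± 0.16 SE, 95% interval -0.21 to 0.47, edgeR adjusted p = 0.557).

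Ripk3 (chr14:55784995-55788865), the kinase that phosphorylates MLKL, rose at 12, 48 and 72 h from very low counts. At 0 h, control mice held 0.644, 0.885, 1.10 and 1.31 CPM and LKO mice 0.607, 0.815, 1.05 and 1.32 CPM. Control pools held 1.83, 1.34, 2.86, 3.87 and 1.48 CPM from 12 to 96 h, and LKO pools 2.53, 0.829, 2.15, 1.81 and 1.08 CPM. Both pools were above all 8 mice at 12, 48 and 72 h, whereas the LKO pool at 24 h was within the range of the mice. Fold changes were 2.30 at 12 h (log2 1.20 ± 0.36 SE, edgeR adjusted p = 0.0166), 2.57 at 48 h (1.36 ± 0.35 SE, adjusted p = 0.0136) and 2.84 at 72 h (1.51 ± 0.35 SE, adjusted p = 0.00686). The pools hold 16 to 58 reads each, and each call was lost when a pool of its time was left out. Without the LKO pool, the 12 h value was 0.71 (adjusted p = 0.291), without the control pool the 72 h value was 0.99 (adjusted p = 0.349), and the 48 h value was 1.29 (adjusted p = 0.160) without the control and 1.44 (adjusted p = 0.0566) without the LKO pool. The summed level of the 10 macrophage or Kupffer cell markers moved with it in part. It was 178 to 454 CPM in the 8 mice, 163 to 276 CPM in the pools at 12 and 24 h and the control pool at 48 h, 395 CPM in the LKO pool at 48 h, 802 (control) and 904 (LKO) CPM at 72 h, and 554 (control) and 215 (LKO) CPM at 96 h. At 72 h, 5 of the 10 macrophage markers rose, and none of the 10 was at 0 throughout a group. The summed level of 7 neutrophil markers was above all 8 mice (2.596 to 12.2 CPM) in both pools at 12 h (18.0 and 18.1 CPM), in the control pool alone at 48 h (33.4 CPM, LKO 10.5 CPM) and 72 h (28.7 CPM, LKO 8.99 CPM), and in both at 24 h, when Ripk3 was not called. Over the 18 libraries, which share depth and time course, Pearson's r with Ripk3 was 0.61 for the neutrophil and 0.51 for the macrophage list. The neutrophil list had r = 0.70 with Mlkl, 0.65 with Bcl2l11 and 0.61 with Casp8. Lists of other cells ran with these genes too, among them hepatocyte (0.51 with Mlkl), stellate cell (0.44 with Ripk3) and cholangiocyte (0.53 with Casp8). The lymphocyte list ran opposite to Casp8 (-0.54). The sinusoidal endothelium list ran opposite to Mlkl (r = -0.72) and Ripk3 (-0.54). The summed level of its 5 markers was 179 to 228 CPM in the 8 mice and below all of them in both pools at 24 h (139.5 and 138 CPM), 48 h (169 and 159.7 CPM) and 72 h (133 and 139.8 CPM), with 1 marker risen and 2 fallen at 24 h and none at 0 throughout a group. The part of these cells in the rise of any of these genes was not tested.

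Mlkl (chr8:111311797-111338177), the executor of necroptosis, rose at each time from 12 to 72 h. Before APAP, control mice held 3.32, 3.50, 3.83 and 5.24 CPM and LKO mice 3.97, 4.36, 4.58 and 4.73 CPM. Control pools held 12.3, 15.1, 7.46, 8.73 and 7.57 CPM from 12 to 96 h, and LKO pools 5.78, 15.0, 8.89, 7.89 and 6.93 CPM. All 10 pools were above all 8 mice, which 0.375% of 13328 genes showed, and both genotypes peaked at 24 h with nearly the same level. The 24 h rise was 3.58-fold (log2 1.84 ± 0.22 SE, edgeR adjusted p = 4.1e-05) and was called in all 27 alternatives. At 12 h it was 2.12-fold (1.09 ± 0.23 SE, adjusted p = 0.00223), at 48 h 1.95-fold (0.96 ± 0.23 SE, adjusted p = 0.00963) and at 72 h 1.97-fold (0.98 ± 0.23 SE, adjusted p = 0.00796). The 96 h value of 0.78 ± 0.24 SE was not called (adjusted p = 0.135). The 12 h value rested on the control pool and was 0.42 (adjusted p = 0.294) without it. At 48 and 72 h both pools were above all mice, and the calls were lost with a pool left out while the values stayed at 1.13 (48 h, adjusted p = 0.0592) and 0.94 (72 h, adjusted p = 0.163) without the control pool, and 0.78 (48 h, adjusted p = 0.125) without the LKO pool. The summed neutrophil level was 2.55 to 33.4 CPM in the pools, with none of the 7 markers at 0 throughout a group of the LKO cohort. At 24 h it was 14.1 (control) and 32.4 (LKO) CPM, and 4 of the 6 neutrophil markers tested rose.

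Gsdmd (chr15:75862327-75867408), the pyroptosis pore protein, was the only member that fell. The 4 control mice at 0 h held 41.8, 44.1, 47.7 and 49.7 CPM and LKO mice 44.3, 45.6, 49.0 and 54.8 CPM. Control pools held 17.7, 51.0, 40.7, 29.3 and 56.8 CPM from 12 to 96 h, and LKO pools 24.4, 37.5, 58.0, 46.5 and 57.2 CPM. Both 12 h pools were below all 8 mice, and both 96 h pools were above them. The 12 h fall was 2.25-fold (log2 -1.17 ± 0.20 SE, edgeR adjusted p = 3.4e-04), and it was called in all 27 alternatives. At 72 h, the value was -0.33 ± 0.18 SE (adjusted p = 0.230).

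Bcl2l11 (chr2:128126038-128162547), which encodes the pro-apoptotic BIM, had the largest rise of the 9 genes at 12 h for both genotypes together. In control libraries alone the rise of Bcl2l1 was larger (log2 2.77 against 2.35 for Bcl2l11). Control mice at 0 h held 3.84, 5.44, 5.90 and 10.1 CPM and LKO mice 6.41, 6.54, 8.38 and 9.11 CPM. Control pools held 32.6, 9.23, 11.4, 10.3 and 5.59 CPM from 12 to 96 h, and LKO pools 21.5, 9.43, 9.45, 11.0 and 4.55 CPM. Both 12 h pools were far above all mice, and at 24 h both were within the range of the mice. At 48 h the control pool, and at 72 h both pools, were again above all mice, by a small margin, and at 96 h both were within their range. The rise at 12 h was 3.86-fold (log2 1.95 ± 0.25 SE, edgeR adjusted p = 3.8e-05) and was called in all 27 alternatives, LKO libraries alone included. At 48 and 72 h, values of 0.58 ± 0.27 SE (adjusted p = 0.145) and 0.61 ± 0.27 SE (adjusted p = 0.126) were not called.

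Bcl2l1 (chr2:152780668-152831728), which encodes BCL-XL, rose at 12 and 24 h, with the widest gap between genotypes of the 9 genes. At 0 h, control mice held 40.7, 57.3, 70.0 and 105 CPM and LKO mice 35.6, 47.2, 47.3 and 91.1 CPM. Control pools held 466, 237, 119, 76.3 and 56.9 CPM from 12 to 96 h, and LKO pools 61.0, 108, 37.6, 43.9 and 40.7 CPM. The control pools at 12, 24 and 48 h and the LKO pool at 24 h were above all 8 mice, whereas the LKO pool at 12 h was in their midst. For both pools together, the rise was 3.40-fold at 12 h (log2 1.77 ± 0.42 SE, edgeR adjusted p = 0.00438) and 2.57-fold at 24 h (1.36 ± 0.41 SE, adjusted p = 0.0212). Without the control pool, the 12 h value was 0.30 (adjusted p = 0.697). The 24 h call was lost without either pool, with values of 1.23 (adjusted p = 0.177) without the control and 1.503 (adjusted p = 0.114) without the LKO pool.

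Mcl1 (chr3:95658788-95663176), a short-lived anti-apoptotic protein, also rose at 12 h, with the control pool far above the LKO pool. Before APAP, control mice held 156, 158, 159 and 193 CPM and LKO mice 135, 138, 153 and 212 CPM. Control pools held 783, 301, 216, 185 and 180 CPM from 12 to 96 h, and LKO pools 200, 168, 154, 173 and 150 CPM. The control pools from 12 to 48 h were above all 8 mice, and all 5 LKO pools were within their range. The 12 h rise of both pools together was 2.77-fold (log2 1.47 ± 0.27 SE, edgeR adjusted p = 7.6e-04), and without the control pool it was 0.41 on the log2 scale (adjusted p = 0.293). At 24 h the value was 0.47 ± 0.28 SE (adjusted p = 0.230). In control libraries alone it was 0.85 (adjusted p = 0.0385).

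**Figure D3:**
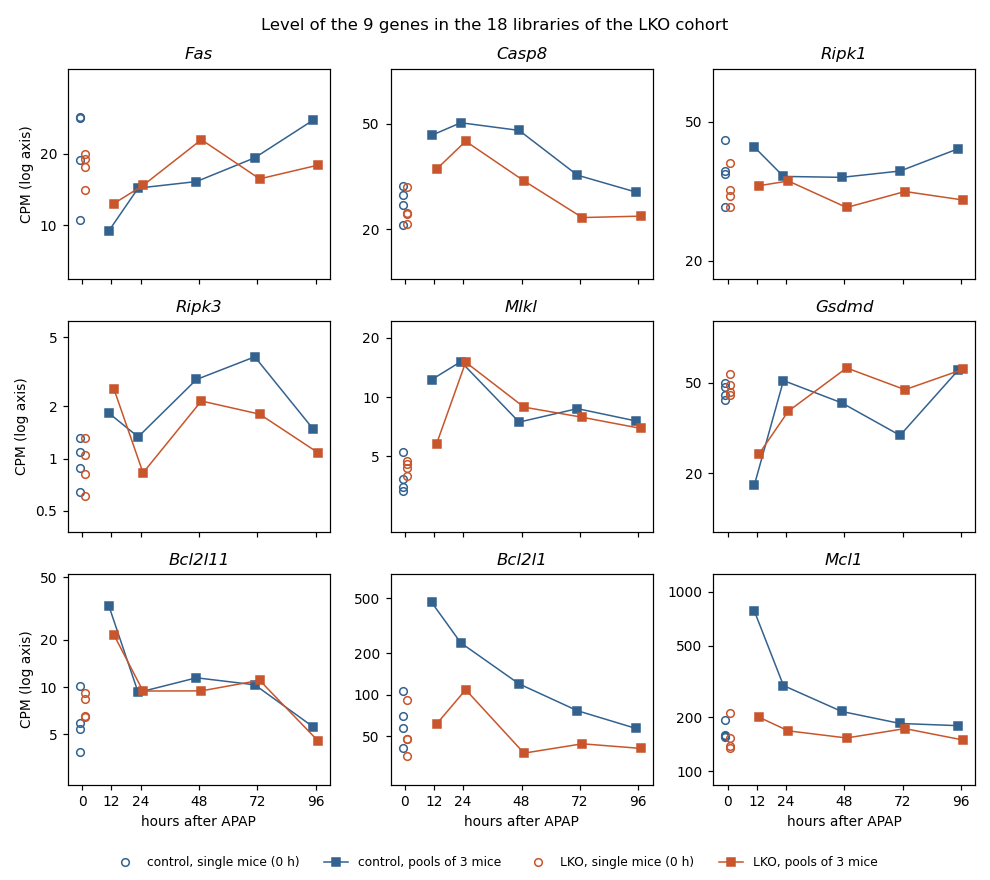
CPM (y axis, log scale, range set per gene) of the 9 genes against hours after APAP (x axis, with the genotypes drawn slightly apart), in control (blue) and LKO (orange) libraries. Open circles are single mice at 0 h and squares joined by lines are pools of 3 mice, 1 per genotype and time. Control pools of Bcl2l1 and Mcl1 reach 466 and 783 CPM at 12 h, where the LKO pools hold 61.0 and 200 CPM.

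Between genotypes after APAP, the levels of the anti-apoptotic members Bcl2l1 and Mcl1 were lower in the LKO pools with TMM scaling, but neither gene was called in the test over the 10 pools (edgeR adjusted p = 0.0728 and 0.183) or in the interaction with the mice at 0 h (0.512 and 0.542). At 12 h, the LKO pool held 7.62-fold less Bcl2l1 (log2 difference -2.93) and 3.91-fold less Mcl1 (-1.97) than the control pool, the one with the high share of reads in no feature, with no replicate at that time. At 24 h the differences were -1.13 for Bcl2l1 and -0.84 for Mcl1. Over the 16 pairs of 1 LKO and 1 control mouse at 0 h, the same difference spanned -1.56 to 1.16 for Bcl2l1 and -0.52 to 0.44 for Mcl1. The pairs share mice, which were single and without APAP, so the span does not measure the spread between pools after APAP. Bcl2l1 was below that span at 12 and 48 h and Mcl1 at 12 and 24 h. The share of all genes outside their own span was not computed, so these positions have no background beside them. Bcl2l1 was lower in the LKO pool at all 5 times under each scaling, while the Mcl1 difference at 72 h (-0.10) became 0.01 when libraries were scaled by size alone. Casp8, too, was lower in the LKO pool at all 5 times, by 0.23 to 0.63 on the log2 scale, and was below its span of -0.48 to 0.47 at 48 and 72 h. Ripk3 was below its span of -0.97 to 0.92 at 72 h (-1.05). Ripk1 was lower at all 5 times with TMM, by 0.04 to 0.49, and its 24 h difference turned to 0.02 with scaling by library size.

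Counting all 9 genes against the background, 4 were at least 1.5-fold lower in the LKO pool at 12 h (Mlkl, Bcl2l11, Bcl2l1 and Mcl1) where 22.9% of 13328 genes were, and 0 were higher by that fold where 19.0% were. At 24 h, 3 were lower (Ripk3, Bcl2l1 and Mcl1) and 0 higher, against 10.6% and 8.89%. At 48 h, 2 were lower (Casp8 and Bcl2l1) and 0 higher, against 19.0% and 17.2%. At 72 h, 2 were lower (Ripk3 and Bcl2l1) and 1 higher (Gsdmd), against 15.6% and 14.6%. At 96 h, 1 was lower (Fas) and 0 higher, against 12.4% and 14.8%. The median difference of the 9 genes was between -0.42 (12 h) and -0.19 (72 h), beside -0.03 to 0.02 over all genes. Gsdmd and Fas were higher in the LKO pool at several times. For Gsdmd this was so at 12, 48 and 72 h (0.46, 0.51 and 0.66), above its span of -0.17 to 0.39 over pairs of mice, and it was below that span at 24 h (-0.44). Fas was higher at 12 and 48 h (0.38 and 0.58) and lower at 72 and 96 h (-0.29 and -0.63), all within its span of -1.02 to 0.92. Mlkl was lower in the LKO pool at 12 h (-1.07, outside its span of -0.39 to 0.50) and differed by -0.01 at 24 h, which became 0.06 with scaling by library size.

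**Figure D4:**
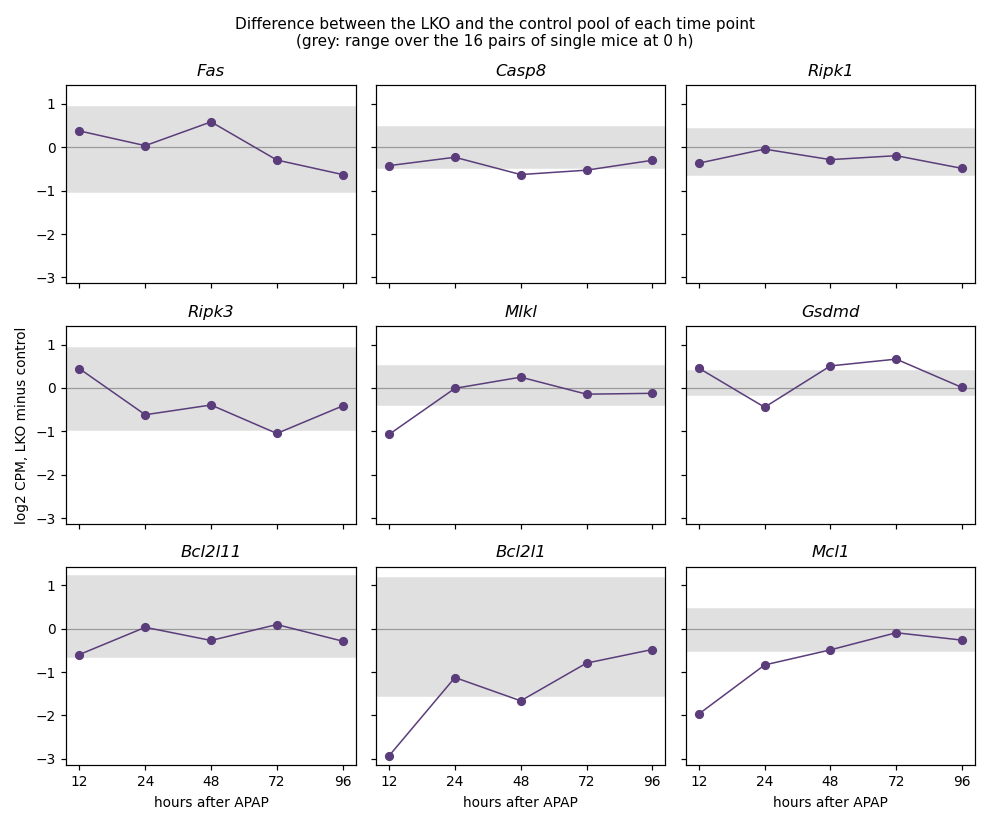
Difference in log2 CPM between the LKO and the control pool (y axis) at 12, 24, 48, 72 and 96 h after APAP (x axis, evenly spaced) for each of the 9 genes, 1 pool per genotype and time. The grey band is the range of the same difference over the 16 pairs of single mice at 0 h. It does not measure the spread between pools after APAP. Bcl2l1 lies below its band at 12 and 48 h, Mcl1 at 12 and 24 h, Casp8 at 48 and 72 h, Mlkl at 12 h, Ripk3 at 72 h and Gsdmd at 24 h, and Gsdmd lies above it at 12, 48 and 72 h. The share of all genes outside such a band was not computed.

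To test whether LKO pools departed from control pools throughout, the 10 pools were fitted with time as a block. None of the 9 genes was called in either direction, where 0.250% of 12782 genes were called higher and 0.329% lower. Bcl2l1 was nearest, at -1.39 ± 0.31 SE (95% interval -2.07 to -0.71, edgeR adjusted p = 0.0728). It was called by DESeq2 (-1.39, adjusted p = 7.7e-05), without a filter on low counts (adjusted p = 0.00966), over 12, 24 and 48 h alone (-1.89, adjusted p = 0.0168) and without both 96 h pools (-1.62, adjusted p = 0.0314), and over all 14 alternatives its adjusted p ran from 7.7e-05 to 0.764. Mcl1 was at -0.73 ± 0.25 SE (-1.28 to -0.17, edgeR adjusted p = 0.183) and was called by DESeq2 (-0.73, adjusted p = 0.0467). Casp8 was at -0.43 ± 0.14 SE (adjusted p = 0.156), Ripk1 at -0.28 ± 0.14 SE (adjusted p = 0.312), Ripk3 at -0.44 ± 0.33 SE (adjusted p = 0.512) and Gsdmd at 0.23 ± 0.18 SE (adjusted p = 0.529). Whether the genotype difference after APAP departed from that at 0 h was tested as an interaction over the 18 libraries, and 0 of 9 genes were called (0% of 13328, 1285 with an unadjusted p under 0.05, and 0 of 9 by DESeq2). Bcl2l1 had an estimate of -1.08 ± 0.50 SE (-2.14 to -0.03, edgeR adjusted p = 0.512) and Mcl1 of -0.66 ± 0.32 SE (-1.35 to 0.03, edgeR adjusted p = 0.542). The neutrophil list also differed between pools, at 9.05 to 33.4 CPM in control and 2.55 to 32.4 CPM in LKO pools, with 18.0 and 18.1 CPM at 12 h, where Bcl2l1 and Mcl1 differed most. The summed level of 5 cholangiocyte markers was 37.8 to 77.9 CPM in the 8 mice, 175 (control) and 36.7 (LKO) CPM at 12 h, 56.1 and 50.8 CPM at 24 h, 218 and 87.2 CPM at 48 h, 69.5 and 43.9 CPM at 72 h, and 21.8 and 21.6 CPM at 96 h. It was higher in the control pool at every time. The 5 markers did not move together against 0 h in both genotypes. At 12 h, 1 rose (Sox9, log2 3.58 ± 0.29 SE) and 0 fell. Krt19 was then at 0.20, Epcam at -0.01, Spp1 at -0.85 and Krt7 at -0.86. At 48 h, 2 rose (Sox9, 1.63, and Spp1, 1.49) and 1 fell (Krt19, -1.45), and none of the 5 was at 0 throughout a group. Over the 18 libraries the Pearson r of the cholangiocyte list was 0.54 with Bcl2l1 and 0.53 with Mcl1. The lymphocyte list ran the other way (r = -0.82 with Bcl2l1 and -0.63 with Mcl1), at low summed levels of 1.29 (control) and 4.15 (LKO) CPM at 12 h and 3.202 to 5.47 CPM in the 8 mice, with none of its 6 markers at 0 throughout a group. Whether these summed levels follow cell numbers, and the part of cell types in the differences of Bcl2l1 and Mcl1, were not tested.

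Other genes of the same pathways moved in both directions. Against 0 h, their values come from both pools of a time point together. They were not recomputed without a pool or in a single genotype. Whether they rest on the control pool, as several 12 h calls of the members did, was not tested. Of 12 death receptor and caspase genes tested, 1 rose (8.33%, against 17.0% of all genes) and 4 fell (33.3%, against 14.5%) at 12 h. Tnfrsf1a, the main TNF receptor, rose (log2 1.43 ± 0.16 SE, edgeR adjusted p = 1.1e-05), and the TRAIL ligand Tnfsf10 (-1.88 ± 0.40 SE, adjusted p = 0.00206) and the effector caspase Casp6 (-0.99 ± 0.35 SE) were among those that fell. At 24 h 3 rose and 3 fell (25.0% each, against 14.1% and 12.1%), at 48 h 1 rose and 1 fell (8.33% each, against 10.0% and 6.71%), and at 72 h 2 rose (16.7%, against 11.0%) and 0 fell (against 5.81%). With 12 genes, each gene makes 8.33% of the list. The TRAIL receptor Tnfrsf10b rose at these 3 times (2.04 ± 0.41, 2.30 ± 0.40 and 1.68 ± 0.42 SE). Cflar, which encodes the caspase 8 inhibitor c-FLIP, fell at 24 h (-0.65 ± 0.20 SE, adjusted p = 0.0204) and 48 h (-0.68 ± 0.20 SE, adjusted p = 0.0252). The list's median was -0.16 at 12 h and between -0.10 and 0.11 later.

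Of 19 mitochondrial apoptosis genes tested, 1 rose (5.26%, against 17.0% of all genes) and 3 fell (15.8%, against 14.5%) at 12 h. At 24 h 4 rose (21.1%, against 14.1%) and 0 fell (against 12.1%), at 48 h 2 rose (10.5%, against 10.0%) and 0 fell (against 6.71%), and at 72 h 3 rose (15.8%, against 11.0%) and 1 fell (5.26%, against 5.81%), so that several of these shares are near those of all genes. In the fit of both pools, Apaf1, the apoptosome scaffold, rose at all 4 times (1.24 ± 0.28, 1.03 ± 0.29, 1.45 ± 0.28 and 1.43 ± 0.28 SE). The calls of this list, too, were not recomputed without a pool. The pro-apoptotic Bik (-2.11 ± 0.35 SE, adjusted p = 2.96e-04) and Bok (-1.52 ± 0.36 SE) fell at 12 h, as did Aifm1, a mitochondrial flavoprotein (-0.63 ± 0.16 SE). At 24 h, the effectors and intermembrane proteins Cycs (1.11 ± 0.18 SE), Bax (0.85 ± 0.26 SE) and Diablo (0.68 ± 0.14 SE) rose. Bak1 rose at 48 h (0.80 ± 0.20 SE) and 72 h (0.73 ± 0.20 SE), and Bcl2a1b, an anti-apoptotic member known from leukocytes with near-identical paralogs that make its count uncertain, rose at 72 h (3.198 ± 0.44 SE, adjusted p = 7.0e-05). The list's median lay between -0.05 and 0.29 at the 5 times.

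Of 19 TNF complex and necroptosis genes, 4 rose at 12, at 24 and at 48 h (21.1%, against 17.0%, 14.1% and 10.0% of all genes) and 3 at 72 h (15.8%, against 11.0%). At 12 and 72 h 1 fell (5.26%, against 14.5% and 5.81%), and at 24 and 48 h 0 fell (against 12.1% and 6.71%). Tnfaip3, which encodes the NF-kB inhibitor A20, rose at 12 h (1.66 ± 0.28 SE, adjusted p = 3.2e-04), 24 h (1.12 ± 0.28 SE) and 48 h (1.49 ± 0.28 SE). Zbp1, a nucleic acid sensor that can engage RIPK3, fell at 12 h (-1.72 ± 0.41 SE, adjusted p = 0.00418) and rose at 24 h (1.62 ± 0.30 SE, adjusted p = 0.00106), 48 h (1.57 ± 0.30 SE) and 72 h (1.06 ± 0.31 SE). The list's median was 0.20 at 12 h and -0.16 at 72 h. Fits without a pool were not made for this list or the next. Of 11 inflammasome and pyroptosis genes, 1 rose (the inflammatory caspase Casp4, 1.53 ± 0.38 SE) and 2 fell (the cytokine Il18, -1.36 ± 0.32 SE, and Ninj1, which ruptures membranes, -0.66 ± 0.17 SE) at 12 h, or 9.09% and 18.2% against 17.0% and 14.5% of all genes. At 24 h, 1 rose (9.09%, against 14.1%, again Casp4, 1.09 ± 0.39 SE), at 48 h 0 were called (against 10.0% higher and 6.71% lower), and at 72 h 3 rose (27.3%, against 11.0%), namely the adaptor Pycard (2.52 ± 0.44 SE, adjusted p = 6.6e-04), the DNA sensor Aim2 (1.56 ± 0.40 SE) and Casp1 (1.31 ± 0.32 SE). The macrophage markers were also high at 72 h (802 and 904 CPM, 5 of 10 risen), and their part in these 3 genes was not tested. The median of this list was 0.08 at 12 h and 0.46 at 72 h. At 96 h, 0 of the 61 genes tested from the 4 lists were called by edgeR, against 0.338% higher and 0.128% lower of all genes. Between genotypes in the LKO cohort, 0 of 57 were called before APAP, against 0% of all genes, and 0 of 59 over 12 to 96 h, against 0.250% higher and 0.329% lower. In HKO against AAV control mice 1 of 55 was called (1.82%, against 0.960% of all genes), Tab2, an adaptor of the kinase TAK1 (0.62 ± 0.11 SE, edgeR adjusted p = 0.0299).

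Patterns over the 18 libraries of the LKO cohort are given as correlations of log2 CPM, which describe these libraries and share their depth and time course. Bcl2l1 and Mcl1 were the most alike pair of members (Pearson r = 0.79), and Bcl2l1 and Casp8 were next (0.71). Bcl2l11 ran opposite to Fas (-0.78) and Gsdmd (-0.76), and Mcl1 opposite to Gsdmd (-0.71). Among all genes kept, the closest to Bcl2l1 were Chic2, Wsb2 and Cldn14 (0.95, 0.93 and 0.92), and those closest to Mcl1 were Eif2ak4, Rell1 and Zyx (0.94, 0.93 and 0.93). Closest to Bcl2l11 were Piezo1, Mast4 and Csf2rb2 (0.90, 0.89 and 0.88), to Mlkl G6pdx, Zfp40 and Gsta1 (0.95, 0.92 and 0.90), and to Casp8 Psmd8, Cdc42se2 and Gml (0.94, 0.93 and 0.93). Ripk3 ran closest to Gtse1, Lat2 and Slamf9 (0.92, 0.89 and 0.87), Gsdmd to BC004004, Nudcd3 and Bloc1s5 (0.90, 0.89 and 0.89), and Fas to Elovl1, Gm14403 and Tcaim (0.90, 0.88 and 0.88). Ripk1, called at no time, had the weakest neighbours, Lonrf1, Tacc1 and Tax1bp1 (0.79, 0.77 and 0.76).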

How the data were processed

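Counts of 24 whole-liver libraries were analyzed. The raw read counts per gene that the authors deposited came from reads trimmed by Trimmomatic and mapped with STAR to mm10, and were not normalized. RNA of 3 mice was pooled before sequencing for each library after APAP. Of the 3 deposited count columns, the one that disregards strand was used. The 4 entries that name no gene (18.7% to 39.9% of all entries per library) were left out. Uniquely mapped reads alone are counted.

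After filterByExpr and TMM, edgeR 4.0.16 (R 4.3.3) was fitted across all genes (2-sided quasi-likelihood F-test), and p-values were adjusted by the Benjamini-Hochberg method. Calls needed an adjusted p under 0.05 and a fold of at least 1.5. All 9 genes passed the filter in each comparison. SE is the log2 fold change divided by the square root of F. Log2 CPM used a prior count of 2. DESeq2 1.42.0 was an alternative, with other scalings, filters, a stranded column, other blocks and each library left out. Fits were tested on simulated data. The 9 genes and all lists were chosen with earlier results of these data known. Of each pathway list, up to 4 called genes with the largest change per comparison could be named, and the 3 genes most correlated with each member were named. Of 24411 symbols, 95.8% matched GENCODE vM21. Where nothing shows that same-group mice are from separate litters, p-values measure only the spread between these samples.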

Additional observations from a re-analysis of the deposited data

Results flagged for a closer look

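Mcl1 in control replicate 3 at 0 h, at 193 CPM, stood apart from the other 3 control mice (156 to 159 CPM) by more than Dixon's limit for 4 values. This library also had the fewest reads on genes (12665686) of the 24, with 20.6% of reads unmapped against 4.11% to 12.0% in the other 3 control mice and 39.9% not assigned to a gene, and held the highest Ripk1 level of the LKO cohort (44.3 CPM). The part of these measures in the Mcl1 value was not tested. With 18 such groups examined (9 genes in 2 groups of 4 mice), chance flags about 1 in 20.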

How the results depend on the processing

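Only values of the 9 genes were recomputed, and no called member changed direction. Of 2175 recomputed values of the 9 genes, 105 changed sign, none of them for a called result. Of these, 10 were differences between the pools of 1 time point, among them those of Ripk1 and Mlkl at 24 h and Mcl1 at 72 h with library-size scaling. Bcl2l1 in HKO against AAV control mice ran from -0.44 to 0.039 with 1 mouse left out (0.039 without AAV control replicate 2). In the LKO against control comparison over 12 to 96 h, the number of members called went from 0 to 2 with DESeq2, 1 with no low-count filter, 1 over 12, 24 and 48 h alone, and 0 to 1 with a time point left out. For 12 h against 0 h, it was 7, 2 in LKO libraries alone and 3 to 8 with a library left out. For 24 h it was 3, 1 in LKO libraries alone and 2 to 3 with a library left out. For 48 h it was 3, 1 in control and 0 in LKO libraries alone, and 0 to 3 with a library left out. For 72 h it was 2, 1 in control and 0 in LKO libraries alone, 1 with at least 10 counts in every library (which removes Ripk3) and 0 to 2 with a library left out. Fits on 1 genotype or without a pool leave 1 pool at that time, which is assumed to vary like the other libraries. Members at least 1.5-fold lower in the LKO pool at 96 h went from 1 to 0 with library-size scaling and 3 with a stranded column. Library-size scaling moved the median of all genes to 0.13 in LKO against control mice at 0 h, 0.14 at 24 h and 0.19 at 48 h. Same-numbered mice did not deviate together (r from -0.35 to 0.20), and the fit with a replicate block called 0 members in each comparison at 0 h. The cause of these changes was not tested. With 7 to 19 reads at 0 h, Ripk3 is limited by counting.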
